A study of Mus musculus with 24 samples.

Results

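App encodes the amyloid precursor protein, and this account follows App, its homologs Aplp1 and Aplp2, and 6 genes of the secretases that cut these precursors (Bace1, Adam10, Psen2, Ncstn, Aph1a and Psenen). The 9 genes were chosen by symbol, after Ensembl identifiers of the count table had been matched to GENCODE M21, and 9 of 55414 identifiers carried them, 1 identifier per gene. They were described in basal forebrain cholinergic neurons of 4 groups of male mice aged about 6 months. The groups were supplemented Ts65Dn (n = 8), control-diet Ts65Dn (n = 6), supplemented 2N (n = 4) and control-diet 2N (n = 6) as labelled, although the series' design text gives 6 mice to each group. Ts65Dn mice carry an extra chromosome that holds the distal part of chromosome 16, from Mrpl39 onward and so including App, and also a piece of chromosome 17 outside the region of synteny with the human chromosome trisomic in Down syndrome. The 2N mice are disomic. All mice were born to Ts65Dn dams mated with C57Bl/6J Eicher × C3H/HeSnJ F1 sires, so every group shares a trisomic mother and a mixed background. Until weaning, choline chloride in the dams' food was 5.0 g/kg for the supplemented groups and 1.1 g/kg for the control groups, after which all offspring ate the control diet. Each library came from about 500 neurons that stained for choline acetyltransferase and were cut by laser from frozen sections of the medial septum and the vertical limb of the diagonal band, and no label gives the litter.

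The amyloid precursor protein and its homologs are membrane proteins of neurons with a large outer domain and a short inner tail. Alpha-secretase (Adam10) or beta-secretase (Bace1) first removes the outer domain. Gamma-secretase, a complex of a presenilin (Psen2), nicastrin (Ncstn), an APH-1 subunit (Aph1a, Aph1b or Aph1c) and PEN-2 (Psenen), then cuts the remaining stub inside the membrane. Cuts by beta- and then gamma-secretase release the amyloid-beta peptide from App, and the third copy of this gene is tied to the early Alzheimer pathology of people with Down syndrome. Cholinergic neurons of the basal forebrain degenerate early in that pathology and are lost with age in Ts65Dn mice.

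The amyloid-beta peptide is encoded in App and not in its homologs, whereas the tail of all 3 precursors holds the same adaptor-binding motif, so both stretches are shown. The first is the part of the coding sequence of App (chromosome 16, the transcript of the 695-residue protein) that encodes the mouse peptide, with capitals marking the first codon and the last pair of codons, which only the longer common form of the peptide retains.
App: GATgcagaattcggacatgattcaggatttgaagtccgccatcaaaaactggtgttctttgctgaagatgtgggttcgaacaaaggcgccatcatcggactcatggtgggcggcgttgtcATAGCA
The next are 57 bases of the tail from the transcripts of the 695-residue App, the 654-residue Aplp1 and the 751-residue Aplp2 protein, on chromosomes 16, 7 and 9, with capitals marking the codons of the motif glutamate-asparagine-proline-threonine-tyrosine.
App: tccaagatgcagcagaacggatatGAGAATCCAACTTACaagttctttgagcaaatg
Aplp1: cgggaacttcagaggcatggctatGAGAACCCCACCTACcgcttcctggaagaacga
Aplp2: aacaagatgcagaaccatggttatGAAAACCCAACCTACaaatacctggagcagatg
These sequences are those of GENCODE M21 on the GRCm38 build. The App and Aplp2 stretches shared 42 of 57 bases, Aplp1 and Aplp2 35, and App and Aplp1 32. Of the 19 amino acids they encode, 14, 11 and 10 were identical in the same order. In that annotation App spans bases 84949685 to 85173766 of chromosome 16 on the minus strand. The labels name GRCm39 and mm10 without saying which the counts used.

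Total counts ran from 4688258 to 13443438 per library. Chat, which encodes the protein stained for capture, was under 1 CPM (counts per 1000000 counted reads) in 6 libraries, of which 3 were control-diet Ts65Dn and 1 came from each other group. The summed level of 10 cholinergic markers, all of them in the table, was 144 to 464 CPM in supplemented Ts65Dn (median 259), 6.61 to 240 CPM in control-diet Ts65Dn (median 132), 248 to 589 CPM in supplemented 2N (median 288) and 192 to 280 CPM in control-diet 2N (median 257). Slc18a3, the vesicular acetylcholine transporter, was at 0 in 4 of 6 control-diet Ts65Dn libraries and in none of the other 18. Gbx2 was at 0 in 23 of 24 libraries. Xist, an RNA of female cells, had 10 or more counts in 6 libraries although the mice are described as male. They were control-diet Ts65Dn 1, 2, 4 and 6 (237, 155, 10 and 80 counts), supplemented Ts65Dn 8 (25 counts) and supplemented 2N 2 (164 counts). No control-diet 2N library was among them, and the part of sex or sample identity in the control-diet comparison of genotypes was not tested. No 2 of the 24 libraries held identical counts.

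App was among the most abundant messages of these neurons, and the 6 secretase genes lay far below it. Levels of different genes are given in TPM, transcripts per 1000000 transcripts, a unit that divides by transcript length. App ranged from 904 to 1988 TPM over 24 libraries (median 1145), and 42 of 19967 tested genes had a higher median. Aplp2 had a median of 321 TPM (37.4 to 513) and Aplp1 one of 310 TPM (165 to 737). App lay above Aplp2 in 24 of 24 libraries and Aplp1 above Bace1 in 24 of 24, whereas Aplp2 lay above Aplp1 in only 10, so this pair has no fixed order. Below them came the median of Bace1 at 18.9 TPM (9.22 to 71.5), of Ncstn at 14.8 TPM (5.13 to 64.2) and of Psenen at 10.3 TPM (0 to 67.0). Adam10 followed at 7.86 TPM (1.95 to 29.4), Psen2 at 7.38 TPM (0 to 29.0) and Aph1a at 2.10 TPM (0 to 132). From Bace1 to Psen2, each gene lay above the next in this order in 12 to 16 of 24 libraries, so neighbours in it do not differ beyond their spread. By median, 3877 of the 19967 tested genes lay above Bace1, 7012 above Psen2 and 10620 above Aph1a.

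**Figure D1:**
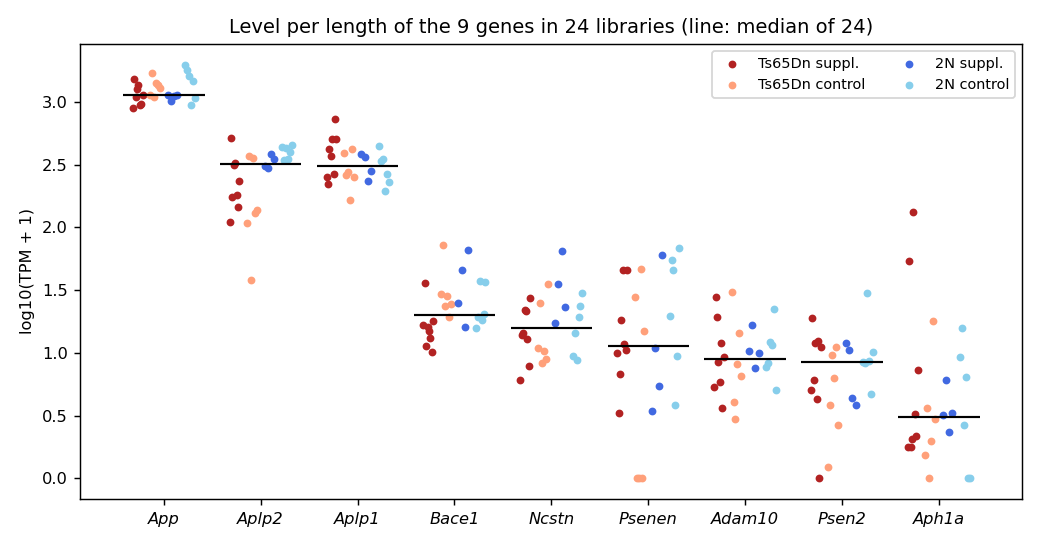
Level per length of the 9 genes, as log10(TPM + 1), in each of 24 libraries coloured by genotype and diet, with a line at the median of all libraries. App (median 1145 TPM) lies above both homologs in every library, and the 6 secretase genes lie far below and overlap.

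App did not pass the test in any comparison of genotype or diet, although on the supplemented diet most Ts65Dn libraries lay above the 2N ones. CPM here use library sizes scaled by TMM. Supplemented Ts65Dn libraries had a lowest, median and highest App level of 3021, 3574 and 4140 CPM, and the 4 supplemented 2N libraries had 2213, 2606, 3142 and 3215 CPM. Of the 8 Ts65Dn libraries, 7 were above the highest 2N library. The fitted log2 fold change was 0.34 ± 0.17 (SE), a 1.27-fold difference with a 95% interval of 1.005 to 1.597 (edgeR's quasi-likelihood test, unadjusted p = 0.0454, adjusted p = 0.509, Benjamini-Hochberg). On the control diet App had a lowest, median and highest level of 2942, 3930 and 5019 CPM in Ts65Dn and of 2508, 3786 and 4717 CPM in 2N, and these ranges overlapped nearly throughout. The log2 fold change was 0.10 ± 0.15 (SE), 1.07-fold with an interval of 0.862 to 1.325 (edgeR, adjusted p = 0.936). That interval ends below 1.5, the ratio of 3 gene copies to 2, and the supplemented one includes it. Averaged over both diets, the Ts65Dn level was 1.16 times the 2N level (interval 0.994 to 1.362, edgeR, adjusted p = 0.417). In bulk samples such as these, fewer cells of a type and less RNA per cell cannot be told apart.

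By maternal diet, App means were lower in the supplemented group of both genotypes. Supplemented Ts65Dn averaged 3540 ± 335 CPM (SD, n = 8) and control-diet Ts65Dn 3935 ± 868 CPM (SD, n = 6), a log2 fold change of −0.15 ± 0.14 (SE, edgeR, adjusted p = 0.853). Supplemented 2N averaged 2794 ± 473 CPM (SD, n = 4) and control-diet 2N 3682 ± 901 CPM (SD, n = 6). In 2N the log2 fold change was −0.40 ± 0.17 (SE), with all 4 supplemented libraries below the control-diet mean (edgeR, unadjusted p = 0.0271, adjusted p = 0.598). The interaction, the Ts65Dn against 2N difference on the supplemented diet minus that on the control diet, was 0.25 ± 0.23 (SE, edgeR, adjusted p = 0.914). Since these comparisons share groups, their App values are not separate observations. The sign of the control-diet genotype difference was not stable, at −0.02 with limma-voom and −0.12 on log2(TPM + 1), and the average over both diets was −0.04 on log2(TPM + 1). Without a filter on low counts App passed on the supplemented diet (0.37, adjusted p = 0.022) and in the average (0.23, adjusted p = 0.0433). Over all alternatives and left-out libraries the adjusted p ran from 0.022 to 0.959 and from 0.0433 to 0.928.

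No member of the 9 passed in any of the 6 comparisons (edgeR, adjusted p under 0.05). Over all 19967 tested genes, 0.336% were called for Ts65Dn against 2N on the control diet, 0.18% on the supplemented diet and 0.982% averaged over both diets. For supplemented against control diet, 0.13% were called in Ts65Dn and 0.00501% in 2N, and 0.00501% for the interaction. With so few calls, 0 of 9 is what these backgrounds give and says nothing particular about the members. At an unadjusted p under 0.05 the members numbered 2 (control diet) and 2 (supplemented diet) for genotype, 2 for the average, 0 and 1 for diet in Ts65Dn and 2N, and 0 for the interaction, where all genes stood at 10.9%, 9.49%, 12.9%, 9.62%, 6.92% and 8.43% in that order. With other tools, the count was 0 with limma-voom in all 6 comparisons and 1 with DESeq2 in the average over both diets, Aplp1 at 0.52 (adjusted p = 0.0445, range over the alternatives and left-out libraries 0.0445 to 0.816). Median log2 fold changes of the 9 genes were 0.38 on the supplemented and −0.24 on the control diet for genotype, beside 0.09 and −0.02 over all genes, and 0.32 in Ts65Dn and −0.19 in 2N for diet, beside 0.04 and −0.06.

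**Figure D2:**
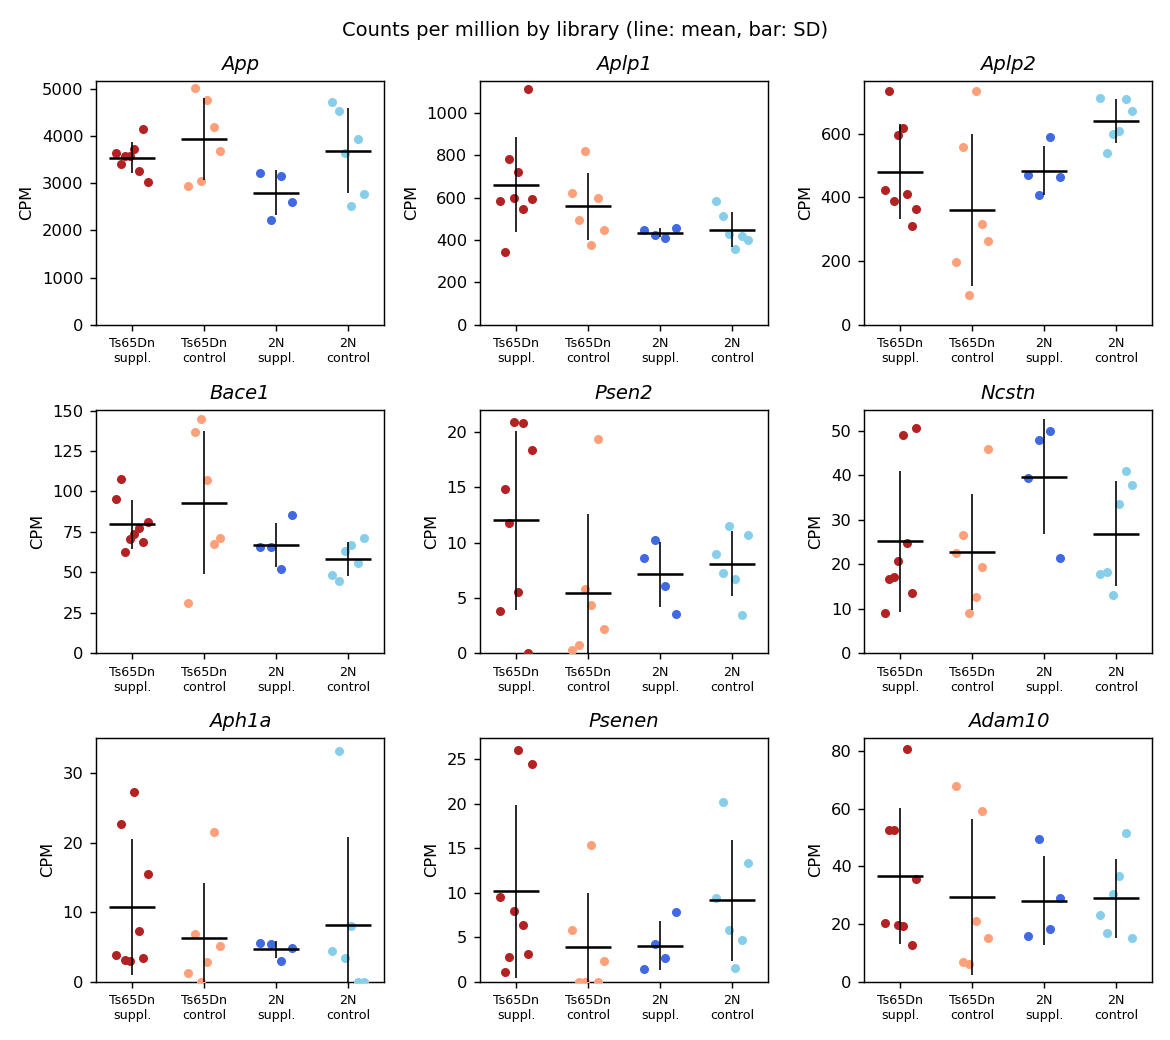
CPM of each of the 9 genes by library in supplemented Ts65Dn, control-diet Ts65Dn, supplemented 2N and control-diet 2N, with the mean as a line and the SD as a bar (bars end at 0). Within each genotype and each diet the 2 groups overlap for every gene, and control-diet Ts65Dn spreads most widely for Aplp2 (94.3 to 733 CPM) and Bace1 (31.2 to 145 CPM).

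On the control diet the fitted genotype values of the homologs had opposite signs, and neither passed. That of Aplp1 was 0.32 ± 0.22 (SE, edgeR, adjusted p = 0.703), and its sign turned on log2(TPM + 1), at −0.056. Aplp2, the ubiquitous homolog, had 94.3, 198, 263, 316, 559 and 733 CPM in the 6 control-diet Ts65Dn libraries, and a lowest, median and highest level of 540, 640 and 713 CPM in control-diet 2N. In Ts65Dn, 4 libraries were below every 2N library and 1 was above every 2N library. The log2 fold change was −0.83 ± 0.28 (SE), 0.564-fold with an interval of 0.381 to 0.835 (edgeR, unadjusted p = 0.00526, adjusted p = 0.201). Without the library at 733 CPM (control-diet Ts65Dn 4) Aplp2 passed, at −1.16 (adjusted p = 0.0289), and it passed with no filter on low counts, at −0.86 (adjusted p = 0.00548). Over all alternatives and left-out libraries its adjusted p ran from 0.00548 to 0.883. The 3 control-diet Ts65Dn libraries with Chat under 1 CPM had 94.3, 263 and 316 CPM of Aplp2, and without all libraries of that kind the log2 fold change was −0.34 (adjusted p = 0.883). Markers of glutamatergic neurons summed to 332 to 2958 CPM in control-diet Ts65Dn (median 980) and 156 to 876 CPM in control-diet 2N (median 230), with 4 of 4 genes measured. The list was split, since 2 of these genes had a positive and 2 a negative log2 fold change between these groups (edgeR), and 1 passed. Markers of oligodendrocytes summed to 644 to 3889 CPM and 3175 to 4073 CPM in the same groups, with 8 of 8 measured. The part of these other cells in the Aplp2 values was not tested.

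On the supplemented diet Aplp2 had a lowest, median and highest level of 310, 416 and 733 CPM in Ts65Dn and 408, 463, 470 and 591 CPM in 2N, with a log2 fold change of −0.01 ± 0.30 (SE, edgeR, adjusted p = 1). The sign of that value is not defined by the data. All 8 supplemented Ts65Dn libraries were above the mean log2 CPM of control-diet Ts65Dn, and the fitted diet effect was 0.41 ± 0.26 (SE, edgeR, adjusted p = 0.707). It was 0.04 without the libraries with Chat under 1 CPM. In 2N all 4 supplemented libraries were below the control-diet mean, with a log2 fold change of −0.41 ± 0.32 (SE, edgeR, adjusted p = 1). The interaction was 0.82 ± 0.41 (SE, edgeR, unadjusted p = 0.0531, adjusted p = 0.604).

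Aplp1, the homolog largely restricted to neurons, was higher in Ts65Dn on the supplemented diet in value but did not pass. Supplemented Ts65Dn libraries had a lowest, median and highest level of 342, 595 and 1111 CPM, and the supplemented 2N libraries had 409, 426, 447 and 456 CPM. Of the 8 Ts65Dn libraries, 7 were above every 2N library and 1 was below every one. The log2 fold change was 0.60 ± 0.24 (SE), 1.52-fold with an interval of 1.09 to 2.11 (edgeR, unadjusted p = 0.0138, adjusted p = 0.425). Of the 7 Ts65Dn libraries above the 2N ones, 6 (548 to 1111 CPM) had mitochondrial rRNA at 29.0% to 43.3% of counts and a short length estimate for App, and the other had 723 CPM. Without the 7 libraries of that kind in the series, the log2 fold change was 0.27 (adjusted p = 0.874), and 0.23 (adjusted p = 0.7045) averaged over both diets. That fit kept only 2 supplemented Ts65Dn libraries, at 342 and 723 CPM, which lie on either side of all supplemented 2N ones. It so cannot separate the traits of the 7 libraries from the loss of replicates. The part of the mitochondrial rRNA share in the Aplp1 values was not tested. On the control diet Aplp1 had a lowest, median and highest level of 376, 547 and 822 CPM in Ts65Dn and 356, 422 and 583 CPM in 2N, a log2 fold change of 0.32 ± 0.22 (SE, edgeR, adjusted p = 0.703). Averaged over both diets it was 0.46 ± 0.16 (SE, edgeR, unadjusted p = 0.00602, adjusted p = 0.163). Diet moved Aplp1 by 0.24 ± 0.20 in Ts65Dn and by −0.05 ± 0.24 in 2N on the log2 scale (SE, edgeR, adjusted p = 0.83 and 1).

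**Figure D3:**
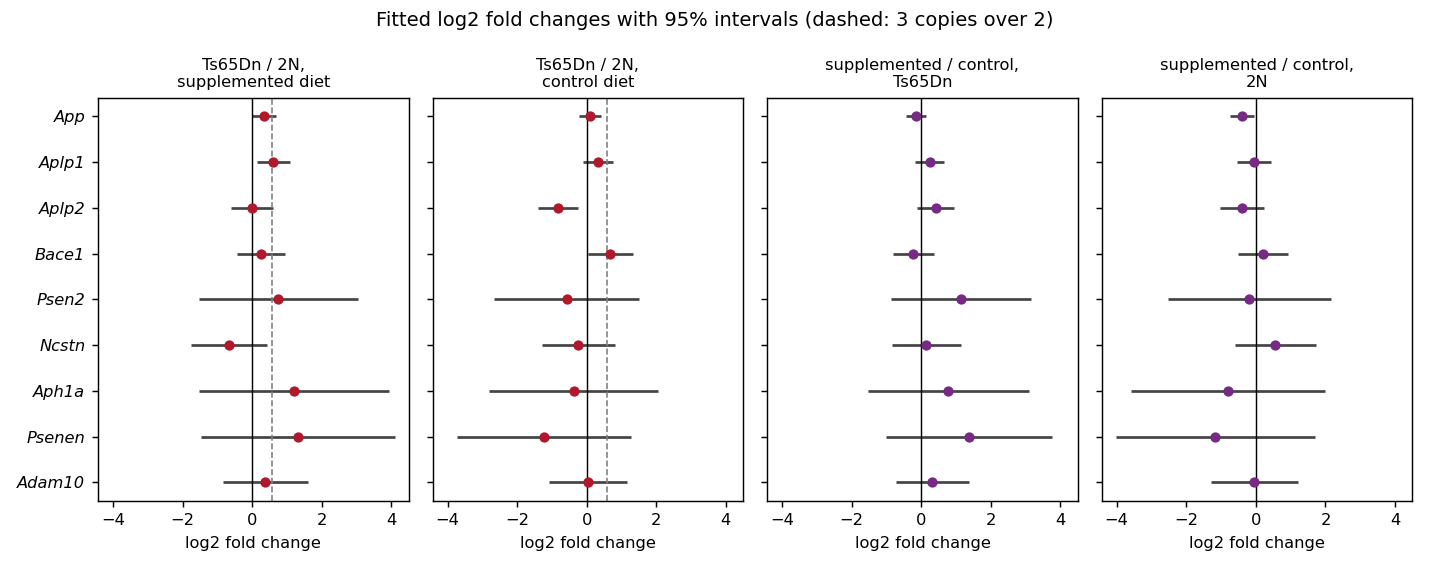
Fitted log2 fold change of each gene with its 95% interval, for Ts65Dn over 2N on the supplemented and control diets and for supplemented over control diet in Ts65Dn and 2N. The dashed line marks 0.585, the log2 of 3 copies over 2. Intervals are narrow for App (SE 0.15 on the control diet) and widest for Aph1a and Psenen (SE 1.21 and 1.24).

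Set against the mean of its homologs within each library, App stood higher in control-diet Ts65Dn than elsewhere. Compared with control-diet 2N, it stood higher with respect to Aplp2 and not to Aplp1. The quantity is the log2 CPM of App minus the mean log2 CPM of Aplp1 and Aplp2, on which a library's scaling factor has almost no effect, and it is a description with no test. The 6 control-diet Ts65Dn libraries had 3.07, 3.18, 3.25, 3.27, 3.42 and 3.45, and 17 of the other 18 libraries lay below all of them. Control-diet 2N ran from 2.42 to 3.10 (median 2.85), supplemented Ts65Dn from 2.48 to 2.87 (median 2.73) and supplemented 2N had 2.41, 2.50, 2.68 and 2.81. The group means were 2.71 ± 0.13 in supplemented Ts65Dn, 3.27 ± 0.14 in control-diet Ts65Dn, 2.60 ± 0.18 in supplemented 2N and 2.75 ± 0.27 in control-diet 2N (SD). On log2 TPM the 6 libraries, at 2.45 to 3.42, lay above all other 18, of which the highest had 2.44. Split by homolog on the control diet, App minus Aplp2 was 3.71 ± 0.78 in Ts65Dn and 2.49 ± 0.40 in 2N, while App minus Aplp1 was 2.83 ± 0.67 and 3.02 ± 0.18 (SD, n = 6 each). The genotype differences were thus 1.22 and −0.19, and App itself differed by only 0.10 ± 0.15 (SE, edgeR, adjusted p = 0.936). The mean separation on this diet so lay with low Aplp2. In the supplemented groups App minus Aplp1 was lower than in control-diet Ts65Dn, at 2.49 ± 0.41 in Ts65Dn and 2.67 ± 0.27 in 2N (SD). App minus Aplp2 was lower there too, at 2.93 ± 0.47 and 2.53 ± 0.17 (SD). How often other genes separate the groups in this way was not tested. Aplp1 minus Aplp2 ran from −0.96 to 3.12 in control-diet Ts65Dn and from −0.77 to −0.08 in control-diet 2N. App made up 80.8% ± 2.70 of the counts of the 3 precursors in control-diet Ts65Dn and 76.6% ± 3.65 in control-diet 2N (SD, n = 6 each).

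Of the enzymes that make the first cut, Bace1 had a higher value in control-diet Ts65Dn and Adam10 had no clear direction, and neither passed. Bace1, the beta-secretase, had 31.2, 67.7, 71.2, 107, 137 and 145 CPM in control-diet Ts65Dn and a lowest, median and highest level of 44.4, 59.4 and 71.0 CPM in control-diet 2N. In Ts65Dn 4 libraries were above every 2N library and 1 was below every one. The log2 fold change was 0.68 ± 0.32 (SE), 1.60-fold with an interval of 1.02 to 2.50 (edgeR, unadjusted p = 0.0398, adjusted p = 0.411). On the supplemented diet Bace1 had a lowest, median and highest level of 62.4, 75.8 and 108 CPM in Ts65Dn and 51.8, 65.4, 65.7 and 85.3 CPM in 2N (log2 fold change 0.25 ± 0.34, SE, edgeR, adjusted p = 0.98). On log2(TPM + 1) that last value was −1.08. Bace1 lies opposite Rnf214, which had 126% of its counts, and the sources used here do not give the strand setting of the counting, so reads of the 2 genes may not be separable.

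Adam10, the main alpha-secretase of neurons, ranged from 6.27 to 80.7 CPM over 24 libraries. It averaged 36.8 ± 23.5 CPM in supplemented Ts65Dn, 29.5 ± 27.2 CPM in control-diet Ts65Dn, 28.2 ± 15.4 CPM in supplemented 2N and 29.0 ± 13.8 CPM in control-diet 2N (SD). Its log2 fold changes for genotype were 0.38 ± 0.60 on the supplemented and 0.03 ± 0.56 on the control diet (SE, edgeR, adjusted p = 0.988 and 0.996). For diet they were 0.32 ± 0.52 in Ts65Dn and −0.04 ± 0.62 in 2N (SE, edgeR, adjusted p = 0.943 and 1). For Adam10 and Aph1a on the control diet the difference of mean log2 CPM (−0.43 and 0.32) had the opposite sign to the fitted value (0.03 and −0.38).

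None of the 4 gamma-secretase genes passed, and 3 of them varied widely between libraries, with an SD of log2 CPM over 24 libraries of 1.68 for Psen2, 2.02 for Aph1a and 2.025 for Psenen, beside 0.78 for Ncstn and 0.30 for App. Together they had 62 to 1261 counts per library, against 12595 to 62799 for App alone. Psen2, a catalytic subunit, was at 0 counts in 1 library, and Aph1a, the scaffold subunit, and Psenen, which activates the complex, in 3 libraries each. A count of 0 allows up to 3 counts, or 0.258 to 0.64 CPM (unscaled) in those libraries, and this covers counting error only. All 3 libraries without Psenen were control-diet Ts65Dn (2, 3 and 5), where the other 3 had 2.28, 5.86 and 15.3 CPM. Control-diet 2N had a lowest, median and highest Psenen level of 1.51, 7.59 and 20.2 CPM, supplemented Ts65Dn of 1.09, 7.14 and 26.0 CPM, and supplemented 2N had 1.43, 2.72, 4.27 and 7.88 CPM. The log2 fold change of Psenen on the control diet was −1.22 ± 1.24 (SE, edgeR, adjusted p = 0.87). Psenen lies opposite U2af1l4 and Gm49396, which had 164% and 64.8% of its counts.

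Ncstn, the substrate-binding subunit, was counted in every library, at 9.01 to 50.6 CPM. It averaged 25.2 ± 15.9 CPM in supplemented Ts65Dn, 22.7 ± 13.0 CPM in control-diet Ts65Dn, 39.7 ± 13.0 CPM in supplemented 2N and 26.9 ± 11.9 CPM in control-diet 2N (SD). Its log2 fold change for genotype was −0.66 ± 0.54 on the supplemented and −0.24 ± 0.52 on the control diet (SE, edgeR, adjusted p = 0.898 and 0.954). Psen2 ran from 0 to 20.9 CPM in supplemented Ts65Dn, from 0.267 to 19.4 CPM in control-diet Ts65Dn, from 3.56 to 10.2 CPM in supplemented 2N and from 3.48 to 11.5 CPM in control-diet 2N. Aph1a ran from 2.93 to 27.2 CPM in supplemented Ts65Dn, from 0 to 21.5 CPM in control-diet Ts65Dn, from 2.91 to 5.59 CPM in supplemented 2N and from 0 to 33.2 CPM in control-diet 2N. The Ts65Dn range of both genes took in most 2N values, and their log2 fold changes for genotype had standard errors of 1.04 to 1.35. Copa, opposite Ncstn, had 360% of its counts and Car14, opposite Aph1a, 70.2%.

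The deposited length estimate of App divided the libraries into 2 sets. The effective length that RSEM reports for a gene is the mean over its transcripts, weighted by their estimated abundance, so it moves when reads are assigned to shorter or longer transcripts. App had 1756 to 2379 bases in 7 libraries and 3076 to 3153 bases in the other 17, with none between. The 7 were supplemented Ts65Dn 1, 3, 4, 6, 7 and 8 and control-diet Ts65Dn 3, and none was 2N. In the annotation App has 11 transcripts, of which 6 are protein-coding (2827 to 8167 bases) and 5 are not (658 to 3829 bases). The median over 3747 abundant genes did not differ in this way, at 2362 to 2533 bases in the 7 libraries and 2330 to 2546 bases in the 17. The log2 ratio of mean length in the 7 over the 17 libraries was −0.54 for App, and 222 of the 3747 genes had a lower one. It was −0.58 for Aplp1 and −0.39 for Aplp2, and 0.26 for Bace1. Mitochondrial rRNA took 29.0% to 43.3% of counts in the 7 libraries and 13.5% to 25.8% in the 17, and its part in the lengths was not tested. App counts of the 7 libraries, at 3021 to 4140 CPM, lay within those of the 17, at 2213 to 5019 CPM. Without the 7 libraries, a comparison added after seeing the data, App had a log2 fold change of 0.33 (adjusted p = 0.692) on the supplemented and 0.17 (adjusted p = 0.879) on the control diet. Only 2 supplemented and 5 control-diet Ts65Dn libraries remained in it.

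**Figure D4:**
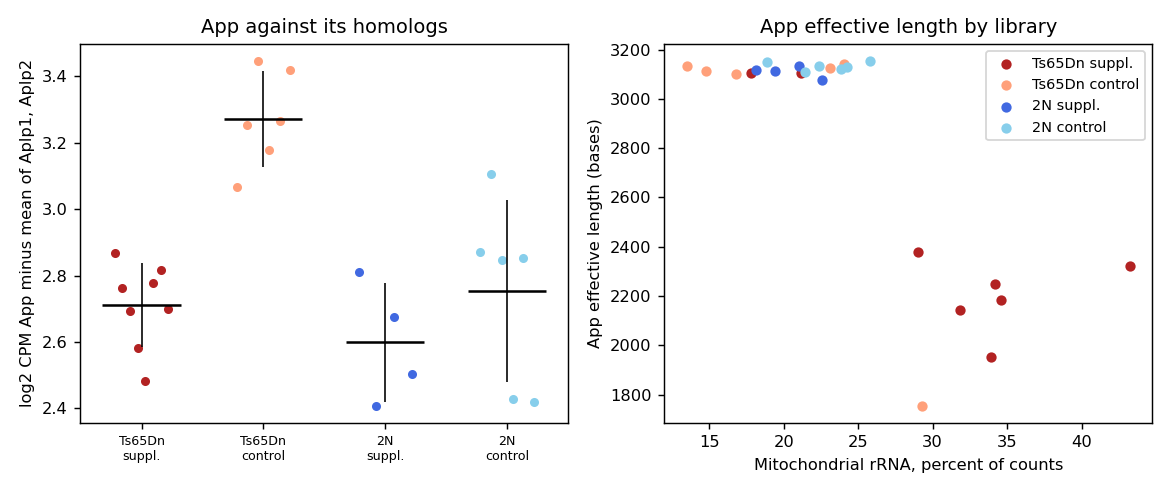
Left, log2 CPM of App minus the mean of Aplp1 and Aplp2 by library and group, with mean (line) and SD (bar); control-diet Ts65Dn runs from 3.07 to 3.45. Right, effective length of App in bases against the share of counts from mitochondrial rRNA; 7 Ts65Dn libraries sit at 1756 to 2379 bases and the other 17 at 3076 to 3153.

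App was on the low side of the triplicated genes expressed here. Of 276 annotated genes of chromosome 16 from Mrpl39 to its distal end, 107 were tested. Of these, 84 had a positive log2 fold change on the supplemented and 76 on the control diet (medians 0.67 and 0.39, beside 0.09 and −0.02 over all genes), and 68 and 69 lay above App. Among the 24 with a mean log2 CPM of at least 5, all 24 were positive on the supplemented and 20 on the control diet (medians 0.60 and 0.26), and 17 of the other 23 lay above App in either case. The interval of App included the median of these 24 genes on each diet. Averaged over both diets, 5 triplicated genes rose (edgeR), of which Tiam1 also rose on the control diet. They were Tiam1, Ets2, Brwd1, Son and Paxbp1, named after their values were seen. The secretase gene Bace2 also lies in the segment, but it had a median of 6.5 counts and was at 0 in 9 of 24 libraries.

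**Figure D5:**
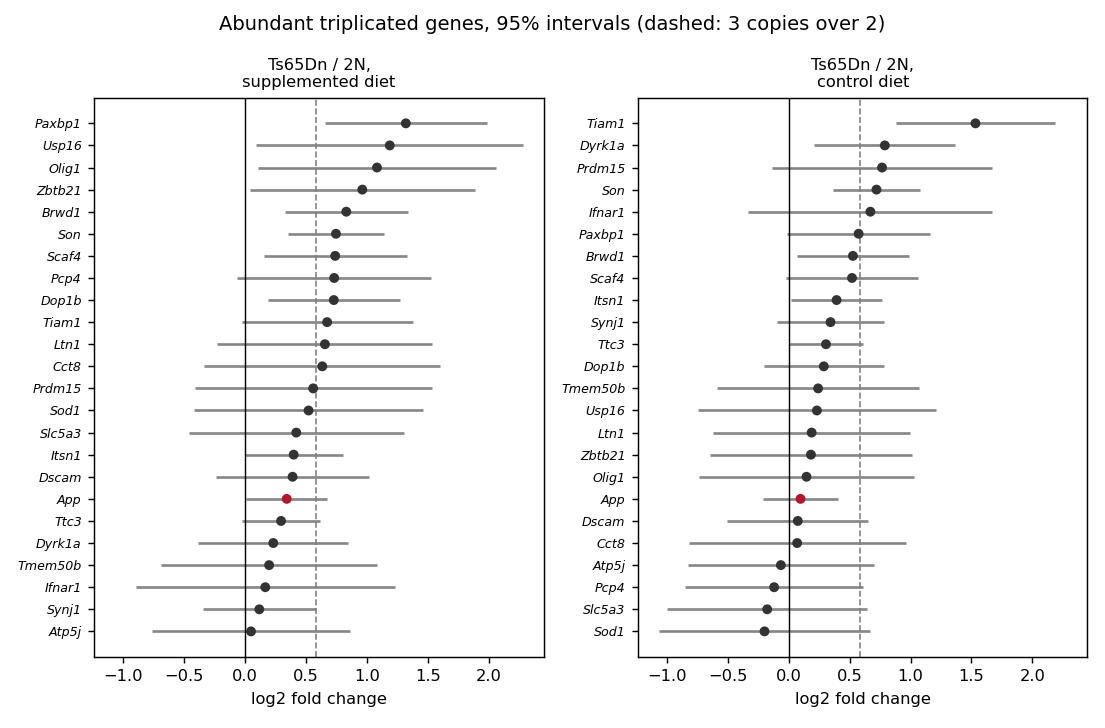
Log2 fold change, Ts65Dn over 2N, with 95% intervals for the 24 abundant triplicated genes on the supplemented (left) and control (right) diet, sorted by value; App is in red and the dashed line marks 3 copies over 2 (0.585). On both diets 17 of the other 23 genes lie above App.

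By the measure used here, the gene nearest to App over the 24 libraries was also triplicated, but any steady gene also lies near App by that measure. Likeness was the root mean square difference of log2 CPM after each gene was centred on its mean, over 3746 abundant genes, whose median was 0.67. The 5 nearest were Itsn1 (0.24, an endocytic scaffold of the same segment), Ubr4 (0.26, a ubiquitin ligase), Ptprs (0.26, a receptor phosphatase), Dync1h1 (0.27, the dynein heavy chain) and Kif1a (0.28, an axonal kinesin). Itsn1 had a log2 fold change for genotype of 0.40 ± 0.20 on the supplemented and 0.39 ± 0.19 on the control diet (SE, edgeR, adjusted p = 0.533 and 0.413). The homologs were farther off, with Aplp1 at 0.45 (413 genes nearer) and Aplp2 at 0.67 (1931 nearer), and Bace1 stood at 0.54 (969 nearer). Their own SDs of log2 CPM were 0.42, 0.69 and 0.49 in that order, and a larger SD raises the distance. App was also steady, since its log2 CPM had an SD of 0.30 over 24 libraries and 3.07% of 3747 abundant genes had a smaller one. A gene that did not vary at all would lie at about that SD from App. The 5 nearest genes lay slightly below it, at 0.24 to 0.28, which takes some variation in step with App. They were picked as the nearest of 3746 genes. The distance alone does not give how much of it is shared variation and how much is steadiness, and shared variation was not tested.

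Of 82 further genes of the pathway in 6 lists, none passed in any of the 6 comparisons, so each list is given by its signs and by the member with the smallest p. Of 6 other secretase genes, 3 were positive on the supplemented and 5 on the control diet for genotype, with Aph1c at −3.48 and Aph1b at −2.75 (edgeR, adjusted p = 0.463 and 0.212), both alternatives to Aph1a in the complex. Aph1b and Aph1c are near-identical copies whose shared reads the counting could have divided unevenly, so both values are uncertain. Aph1b had a median of 26 counts in control-diet Ts65Dn and 212 in control-diet 2N, and of 79.5 in supplemented Ts65Dn and 29.5 in supplemented 2N. Of 17 partners and modulators of the secretases, 9 were positive on either diet, with the reticulon Rtn3, which binds Bace1, at −0.52 and Furin, a protease that matures Bace1 and Adam10, at 0.99 (edgeR, adjusted p = 0.474 and 0.461). Of 13 proteins that bind the App tail, 7 and 9 were positive, with Apbb2 at −0.62 and Appbp2 at −1.53 (edgeR, adjusted p = 0.709 and 0.201). Appbp2 had 1.34 for diet in Ts65Dn (adjusted p = 0.259) and 2.09 for the interaction (adjusted p = 0.382).

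Of 22 genes that sort App and Bace1 between membranes, 11 and 8 were positive for genotype on the supplemented and control diet. The member with the smallest p was the receptor Sorcs1 (−0.92) on the supplemented diet and Sorl1, which returns App from endosomes, on the control diet (−0.55), with adjusted p = 0.487 and 0.328 (edgeR). Snx27, an endosomal sorting adaptor, had 1.08 for diet in Ts65Dn (edgeR, adjusted p = 0.248). Of 9 genes around the breakdown of amyloid-beta, 5 and 2 were positive, with Ide, the insulin-degrading enzyme, at −0.94 and Thop1, a peptidase, at 1.07 (edgeR, adjusted p = 0.81 and 0.586). Cst3, the protease inhibitor cystatin C, had 0.96 ± 0.26 for diet in Ts65Dn (SE, edgeR, adjusted p = 0.1615). Of 15 other gamma-secretase substrates, 8 and 6 were positive, with Syt1, the calcium sensor of synaptic vesicles, at −0.62 and the Notch ligand Dner at −0.68 (edgeR, adjusted p = 0.293 and 0.268). Averaged over both diets Syt1 had −0.48 ± 0.14 (SE, edgeR, adjusted p = 0.075). For diet the ephrin receptor Epha4 had −1.49 ± 0.40 in Ts65Dn and −1.10 ± 0.50 in 2N (SE, edgeR, adjusted p = 0.149 and 0.618).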

How the data were processed

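RNA was measured in 24 libraries. Per the submitters' processing notes, reads were trimmed (Trimmomatic 0.39), aligned (STAR) and quantified (RSEM); the sources used here do not give the strand setting or the versions of STAR and RSEM. The authors deposited unnormalized expected counts from RSEM, TPM values (scaled by length and library) and an effective length in bases, the unit of which follows from the deposited values. Of 55414 identifiers, 52081 had a symbol, taken from GENCODE M21 or, where it gave none, from a further list of gene names. Expected counts were rounded, filtered with filterByExpr (minimum count 10; 19967 genes), scaled with TMM and tested with edgeR 4.0.16 in R 4.3.3 (quasi-likelihood, 4 group means, no covariate, two-sided, Benjamini-Hochberg over all tested genes, called under 0.05); the code was tested on simulated data. CPM use TMM-scaled sizes and log2 CPM a prior count of 2. Mice were treated as independent although diet was given to dams, so p-values leave litters out. Alternatives used DESeq2 1.42.0, limma 3.58.1 (voom, and log2(TPM + 1)), other filters, the first part of the animal identifier as a factor, and subsets of libraries. This prefix was uneven over the diets and, on the control diet, over the genotypes. Prefix 17 was carried by control-diet Ts65Dn 3 to 6, control-diet 2N 3 to 6 and, among supplemented libraries, only supplemented Ts65Dn 8. Control-diet Ts65Dn 1 and 2 carried prefix 16, and control-diet 2N 1 and 2 carried prefix 15. Diet differences, and genotype differences on the control diet, are thus partly tied to the prefix. The genes, lists and naming rules (all 9 genes; per list the called genes or else the smallest p; the 5 genes nearest App) were chosen with earlier results of these data known.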

Additional observations from a re-analysis of the deposited data

Results flagged for a closer look

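Of 44 sets of values (11 quantities in 4 groups), 4 held a library far from the rest of its group, where chance gives about 1 in 20. Control-diet Ts65Dn 5 had a Psen2 level of 19.35 CPM, and the other 5 libraries of that group had 0.267 to 5.79 CPM. The same library held the highest Aph1a level of its group, 21.51 CPM, with 0 to 6.93 CPM in the other 5. Aph1a was at 33.15 CPM in control-diet 2N 2, and at 0 to 7.96 CPM in the other 5. The effective length of App was 1756 bases in control-diet Ts65Dn 3 and 3101 to 3143 bases in the rest of that group. The diet difference of Aplp2 ran in opposite directions in the 2 genotypes: all 8 supplemented Ts65Dn libraries were above the control-diet Ts65Dn mean log2 CPM (mean difference 0.65) and all 4 supplemented 2N libraries below the control-diet 2N mean (−0.41), a gap of 1.065. The control-diet Ts65Dn mean includes library 3, at a log2 CPM of 6.56. Without the libraries with Chat under 1 CPM the fitted diet effect of Aplp2 in Ts65Dn was 0.04. The fitted interaction was 0.82 ± 0.41 (SE, edgeR, adjusted p = 0.604) and did not pass.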

How the results depend on the processing

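Each comparison was refitted under 8 to 10 alternatives and without each library in turn. No paired analysis was possible because the replicate numbers tie no mice together across groups. The count of members passing was 0 except without a filter on low counts (1 on the control diet, 1 on the supplemented diet and 1 averaged over both diets: Aplp2 at −0.86, App at 0.37 and App at 0.23), with DESeq2 averaged over both diets (1, Aplp1), and between 0 and 1 on the control diet as single libraries were left out (Aplp2, without control-diet Ts65Dn 4). The cause was not tested. Calls over all genes, with their range over the alternatives and then over single libraries left out, were less stable, at 67 (0 to 326, 4 to 127) for genotype on the control diet, 36 (2 to 409, 0 to 73) on the supplemented diet and 196 (8 to 724, 108 to 328) averaged, 26 (3 to 236, 12 to 80) and 1 (0 to 216, 0 to 2) for diet in Ts65Dn and 2N, and 1 (0 to 268, 1 to 12) for the interaction. The 36 became 0 without supplemented 2N 1 and 0 without supplemented 2N 3. A count of 0 allows up to 3 counts, so depth limits the values of genes at 0 in a library. App against its homologs moved to −0.74 on log2 TPM for diet in Ts65Dn.

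Signs that turned, none of a value that passed, were these, in log2. For genotype on the control diet, App was −0.021 with limma-voom and −0.12 on TPM, Aplp1 −0.056 on TPM, and Adam10 −0.0075 without the filter, −0.41 with limma-voom, −0.037 with the identifier prefix, −0.31 on TPM and −0.0040 with these groups alone. Aph1a was 0.73 with limma-voom and 0.63 with the prefix. App averaged over both diets was −0.038 on TPM. On the supplemented diet Aplp2 was 0.028 with DESeq2 size factors, 0.018 without the filter, 0.028 with DESeq2, 0.013 with limma-voom, 0.0038 with these groups alone, and 0.070, 0.18 and 0.45 without the 2 low-complexity libraries (control-diet Ts65Dn 3 and supplemented Ts65Dn 7), those with Chat under 1 CPM and the 7 of short App length. On TPM, Bace1 was −1.08, Psen2 −0.016 and Adam10 −0.20. For diet in Ts65Dn Bace1 was 0.10 without the 7. For diet in 2N Aph1a was 1.17 with limma-voom and 0.17 with the prefix, Psen2 1.25 with the prefix, Aplp1 0.081 on TPM, and Adam10 0.073 with limma-voom, 0.13 with the prefix, 0.095 on TPM and 0.37 without libraries with Chat under 1 CPM. Leaving out single libraries turned the sign of Adam10 (−0.41 to 0.27) and Aph1a (−1.34 to 0.99) for genotype on the control diet, of Aplp2 (−0.12 to 0.10) on the supplemented diet, of Ncstn for diet in Ts65Dn (−0.065 to 0.48), and for diet in 2N of Adam10 (−0.46 to 0.20), Aph1a (−1.06 to 0.57), Aplp1 (−0.11 to 0.039) and Psen2 (−0.41 to 0.037).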

Other observations

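Summed levels of other marker lists, in CPM, are given with no test. Markers of neurons in general summed to 1902 to 5420 in supplemented Ts65Dn, 2570 to 5333 in control-diet Ts65Dn, 4179 to 5461 in supplemented 2N and 4333 to 5263 in control-diet 2N. Astrocyte markers summed to 1041 to 2166, 1776 to 2221, 1655 to 1992 and 1966 to 2660 in the same groups. GABAergic markers summed to 686 to 1309, 237 to 1404, 968 to 1309 and 821 to 1236. Markers of striatal projection neurons summed to 78.4 to 171, 54.4 to 381, 207 to 397 and 145 to 329. Those of microglia, oligodendrocyte precursors and vessels lay at 35.3 to 197, 85.4 to 237 and 104 to 332 over all libraries, and hemoglobin genes at 0 to 29.5.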
